A study of Homo sapiens with 18 samples.

Results

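Expression and nearby chromatin of 9 genes for proteins of the red cell surface were followed in K562, a human leukaemia cell line with erythroid features. The genes, chosen by symbol, encode the glycophorins GYPB, GYPC and GYPE, the anion exchanger SLC4A1, the Rh-associated glycoprotein RHAG, the Kell glycoprotein KEL, the skeletal linker ANK1, the erythropoietin receptor EPOR and the scavenger receptor CD36. They are 9 of the 28395 genes in the RNA-seq tables, and 49 of the 85549 merged ATAC-seq regions overlapped these genes or lay within 5 kb of them.

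The 3 stably transfected lines, written here as the study names them, were compared: V-K562, with the empty vector, B-K562, with wild type BASP1, and G-K562, with BASP1-G2A, a mutant that cannot receive the N-terminal myristoyl lipid. Each line had 3 RNA-seq and 3 ATAC-seq libraries from culture replicates, and all lines were selected with G-418. Each line was 1 pool of transfected cells, and in B-K562 and G-K562 most, not all, cells made BASP1, so the form of BASP1 and the history of a pool cannot be told apart, and the replicates measured spread between cultures of a pool. BASP1 had normalized read counts of 5 to 7 in the vector line, 6189 to 6849 with wild type BASP1 and 8124 to 12538 with the mutant, matching the labels. The level of the transgene was thus also higher in every G-K562 library than in any B-K562 library, and the part of that difference in the results was not tested.

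The red cell membrane is held in shape by a spectrin skeleton that is tied to the lipid bilayer at fixed points. Ankyrin, the product of ANK1, links spectrin to the anion exchanger band 3, which is the product of SLC4A1 and swaps chloride for bicarbonate. RHAG sits in the same membrane complex and is needed for the Rh blood group antigens to reach the surface, and glycophorin C, the product of GYPC, ties the membrane to protein 4.1. Most of these proteins accumulate as erythroid precursors mature, whereas CD36, a receptor for fatty acids and thrombospondin, marks an early precursor stage and is also found on monocytes and platelets. EPOR signals through JAK2 and STAT5 to keep erythroid precursors alive.

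Promoters of 5 members are shown because their genes differed in expression between the lines and, in 4 of them, in the height or the presence of peaks at the start. The capitals mark the GATA motif, the letters that GATA factors bind, which is GATA with A or T before it and A or G after it, on either strand. Each stretch holds the 200 bases before the annotated start, 5′ to 3′ on the strand of the gene, from RefSeq on GRCh38.p14.
GYPB, chr4:144019381-144019580, minus strand: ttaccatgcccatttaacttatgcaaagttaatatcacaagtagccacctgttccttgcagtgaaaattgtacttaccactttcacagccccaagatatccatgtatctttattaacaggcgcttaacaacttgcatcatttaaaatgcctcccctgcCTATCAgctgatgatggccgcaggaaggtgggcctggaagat
GYPE, chr4:143905560-143905759, minus strand: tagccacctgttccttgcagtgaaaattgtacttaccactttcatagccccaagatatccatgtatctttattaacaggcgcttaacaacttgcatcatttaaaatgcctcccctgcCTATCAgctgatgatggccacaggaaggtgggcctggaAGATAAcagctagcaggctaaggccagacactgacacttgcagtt
RHAG, chr6:49636840-49637039, minus strand: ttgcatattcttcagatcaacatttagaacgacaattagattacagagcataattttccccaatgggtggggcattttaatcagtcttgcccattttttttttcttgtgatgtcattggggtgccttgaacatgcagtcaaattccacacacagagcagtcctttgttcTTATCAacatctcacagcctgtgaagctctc
KEL, chr7:142962364-142962563, minus strand: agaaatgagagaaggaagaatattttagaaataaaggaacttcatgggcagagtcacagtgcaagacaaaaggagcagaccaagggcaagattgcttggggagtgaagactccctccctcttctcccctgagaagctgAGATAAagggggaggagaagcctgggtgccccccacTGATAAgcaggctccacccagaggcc
EPOR, chr19:11384315-11384514, minus strand: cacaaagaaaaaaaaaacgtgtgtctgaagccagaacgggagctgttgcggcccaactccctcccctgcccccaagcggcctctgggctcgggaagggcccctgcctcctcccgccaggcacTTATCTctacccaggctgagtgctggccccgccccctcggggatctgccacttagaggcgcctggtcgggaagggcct

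The GYPB and GYPE stretches are copies of each other. With GYPE moved by 41 bases, 157 of 159 aligned bases were identical, or 98.7%, and both hold the same pair of GATA words, the second of which begins 4 bases before the GYPB start and runs past the printed stretch. KEL holds 2 GATA words, 62 and 26 bases before its start, and RHAG holds 1 at 31 bases, EPOR 1 at 78 bases and GYPC 1 at 64 bases. The word was found in 6 of the 7 members matched in the promoter table, which spans 250 bases before to 50 after each start, and in 25.0% of the 35116 promoters in it. For CD36, with 6 promoters listed, and GYPB, with 2, only the promoter nearest the annotated start was searched. CD36 had no match in that window, and SLC4A1 and ANK1 were not in the table. CACCC, on either strand, was in 5 of the 7 and in 59.9% of all promoters, and the E-box word CANNTG was in 5 of the 7 and in 68.7% of all. A match is a description of the letters only.

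In V-K562 all 9 genes were transcribed, at levels spread over a wide range. Per kb of exon, the mean normalized read count was 4834 for RHAG, 2472 for GYPC, 1356 for KEL, 756 for GYPE, 649 for ANK1, 418 for GYPB, 259 for EPOR, 160 for SLC4A1 and 3.21 for CD36. The libraries of neighbours in this order did not overlap. In G-K562 the order was changed: KEL went from the third to the fifth place at 437 per kb, below ANK1 at 557 and GYPE at 514, whose libraries overlapped. In B-K562 ANK1, at 1416 per kb, stood above GYPE, at 1267.

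**Figure D1:**
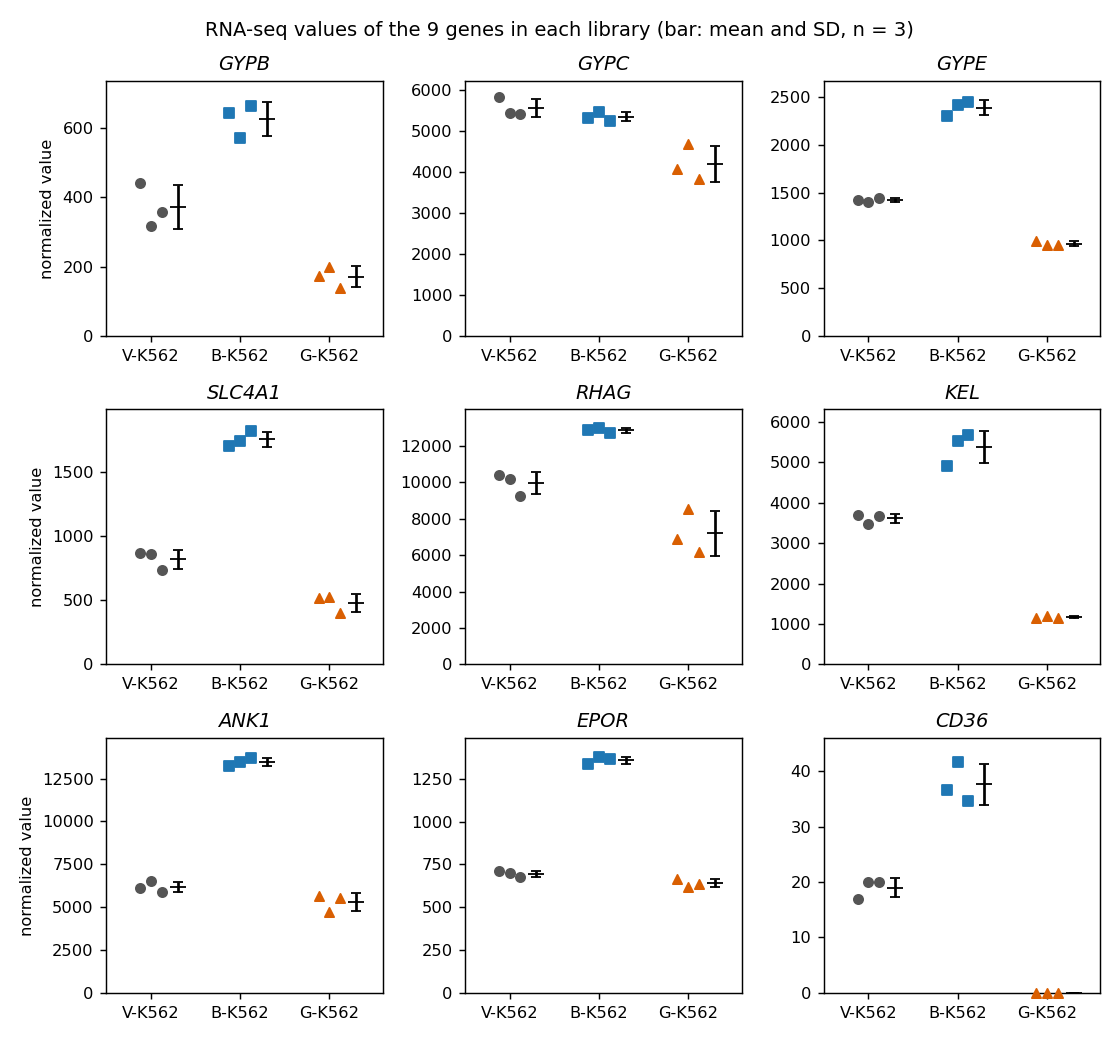
Normalized read counts of the 9 genes in each library, with the mean and SD of 3 libraries beside them; each vertical axis is linear from 0, and B-K562 values were multiplied by 1.017 to stand on the scale of the table that holds G-K562. B-K562 lies above V-K562 for every gene except GYPC, and the 3 G-K562 libraries lie below V-K562 for every gene, with CD36 at 0.

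Wild type BASP1 was accompanied by higher expression of 8 of the 9 genes. B-K562 was set against V-K562 to ask how wild type BASP1 changes these genes, and by limma with Benjamini-Hochberg adjustment over 14958 genes 8 rose and GYPC did not pass the test (adjusted p at most 0.05; 38.6% of all genes tested rose and 37.2% fell). ANK1 and SLC4A1 also rose at least 2-fold, which makes 2 of 9 members beside 6.46% of all genes tested. No member fell, beside 14.1% of all genes that fell at least 2-fold. The median log2 fold change of the members was 0.76, and that of all genes tested was 0.007. With upper-quartile scaling, which moved the median of all genes to -0.145, ANK1 and SLC4A1 were at 0.97 and 0.95 and no member reached the 2-fold criterion.

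BASP1-G2A was accompanied by lower expression of most of these genes. The comparison of G-K562 with V-K562, over 15271 genes, included CD36, which was at 0 in every G-K562 library and passed the filter on low values only through V-K562, so that it had to fall. Of the other 8 members, 7 fell and EPOR did not pass (33.3% of all genes tested fell and 33.5% rose). KEL and GYPB fell at least 2-fold, 2 of these 8 beside 10.3% of all genes tested, and none rose, beside 8.81% that rose at least 2-fold. With CD36 the call count was 3 of 9. The median log2 fold change of the 8 was -0.52, against 0.003 over all genes tested. Without V-K562 replicate 1 only KEL remained of the 3, since GYPB was at -0.99 and CD36 no longer reached the filter on low values. The V-K562 libraries are shared by both comparisons.

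The direct comparison of G-K562 with B-K562, over 15521 genes in a fit of 9 libraries, addressed what the loss of the lipid site changes. CD36 again entered only through the other lines. The other 8 members all fell in G-K562 (40.5% of all genes tested fell and 38.1% rose), 6 of 8 at least 2-fold, beside 12.5% of all genes tested, while none rose, beside 17.4%, and with CD36 the call count was 7 of 9. RHAG and GYPC fell by less than 2-fold. The median of the 8 was -1.33, and that of all genes was -0.023.

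**Figure D2:**
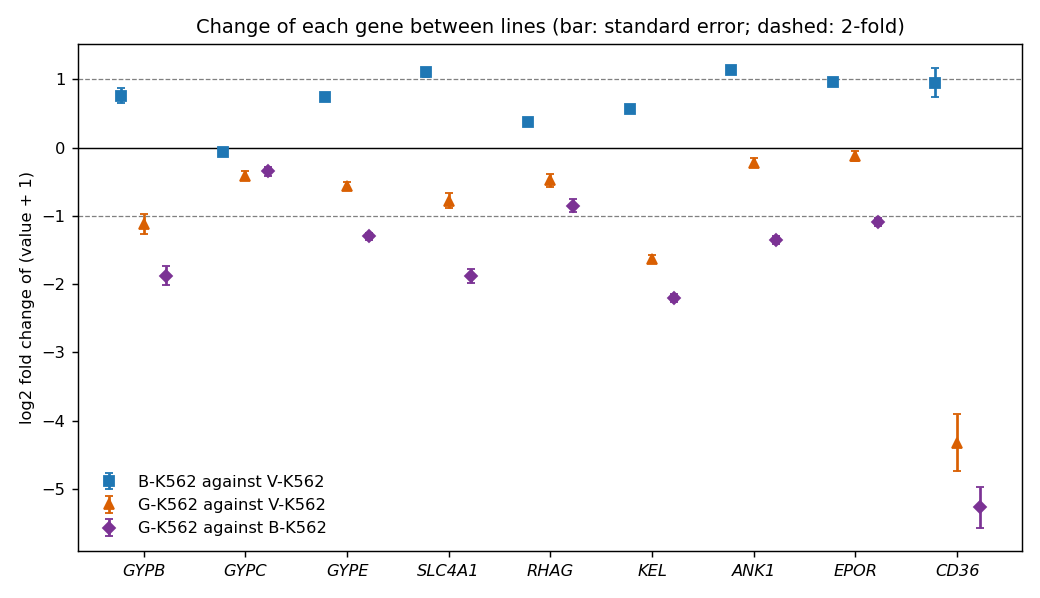
Log2 fold change of the normalized read count plus 1 for each gene in the 3 comparisons, with standard errors; dashed lines mark a 2-fold change. The squares (B-K562 against V-K562) lie above 0 except at GYPC, where the value is -0.06, and the diamonds (G-K562 against B-K562) all lie below 0, from -0.35 at GYPC; the CD36 values against G-K562 rest on libraries at 0.

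Among the glycophorins, sialic acid-rich proteins that carry blood group antigens, GYPB and GYPE rose in B-K562 and fell in G-K562, whereas GYPC passed the test in G-K562 and not in B-K562. GYPB was at 433, 311 and 350 in V-K562, and in B-K562 it had a mean of 615 (SD 46.9, n = 3) with its upper libraries at 632 and 651. The groups did not overlap, and GYPB rose by 0.76 on the log2 scale (SE 0.11, adjusted p = 1.93e-05). In the second table V-K562 was at 440, 316 and 357 and G-K562 at 173, 199 and 139, again without overlap. The fall was -1.12 (SE 0.15, adjusted p = 4.78e-05), and it was -0.99 without V-K562 replicate 1 and -0.98 without G-K562 replicate 3, short of 2-fold in both.

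GYPE, a truncated relative of GYPB, was at 1406, 1380 and 1416 in V-K562 and at 2261, 2372 and 2408 in B-K562. The V-K562 libraries lay close together, and every B-K562 library was above them (log2 fold change 0.74, SE 0.05, adjusted p = 1.04e-08). In G-K562 GYPE was at 999, 953 and 951, beside 1428, 1401 and 1445 in V-K562. GYPE fell by 0.56 (SE 0.06, adjusted p = 8.46e-06). Between G-K562 and B-K562 the log2 differences were -1.88 (SE 0.14) for GYPB and -1.30 (SE 0.05) for GYPE. The study kept uniquely mapped reads with at most 2 mismatches, so reads could be lost from or swapped between these near-identical genes, and their separate levels are uncertain.

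GYPC, which is not related in sequence to the other glycophorins, was at 5729, 5364 and 5308 in V-K562 and at 5232, 5375 and 5157 in B-K562. These libraries overlapped, and the difference of -0.06 (interval -0.15 to 0.04, adjusted p = 0.282) did not pass the test. GYPC was at 4078, 4688 and 3831 in G-K562, below 5816, 5446 and 5415 in V-K562. It fell by 0.41 (SE 0.07, adjusted p = 4.51e-04), and the difference between G-K562 and B-K562 was -0.35 (SE 0.06, adjusted p = 1.63e-04).

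SLC4A1 had values of 855, 845 and 719 in V-K562, and 1679, 1711 and 1792 in B-K562. Its fitted fold between these lines was 2.15 (log2 fold change 1.10, SE 0.07, adjusted p = 6.32e-09). In G-K562 it was at 517, 525 and 399, against 868, 858 and 733 in V-K562, and the groups did not overlap. It fell by 0.78 (SE 0.11, adjusted p = 8.32e-05), and the difference between G-K562 and B-K562 was -1.88 (SE 0.10, adjusted p = 3.21e-10).

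RHAG was the highest member per kb in each line and changed less than most. V-K562 was at 10232, 10042 and 9079, and B-K562 at 12621, 12746 and 12482. The B-K562 libraries all lay higher, by 0.37 on the log2 scale (SE 0.05, adjusted p = 1.75e-05). G-K562 was at 6856, 8526 and 6168 beside 10389, 10196 and 9263 in V-K562, and the G-K562 libraries were the more scattered. RHAG fell by 0.48 (SE 0.10, adjusted p = 0.00122), and by 0.85 from B-K562 to G-K562 (SE 0.09).

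KEL, a zinc endopeptidase that carries the Kell antigens, showed the largest fall in G-K562 among the members that were detected there. V-K562 was at 3638, 3425 and 3589 and B-K562 at 4836, 5439 and 5573. It rose by 0.57 (SE 0.06, adjusted p = 6.06e-07) with no overlap. The G-K562 libraries lay at 1144, 1194 and 1153, against 3694, 3478 and 3662 in V-K562. That difference was -1.63 (SE 0.06, adjusted p = 1.07e-09), and it was between -1.66 and -1.62 over the leave-one-out fits. Against B-K562 it was -2.20 (SE 0.06, adjusted p = 3.34e-13).

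ANK1 rose in B-K562 by about as much as SLC4A1 and fell little in G-K562. It was at 6038, 6411 and 5772 in V-K562 and at 13035, 13229 and 13486 in B-K562. Every B-K562 library held over 2 times the value of every V-K562 library, and the log2 fold change was 1.13 (SE 0.05, adjusted p = 2.15e-10). G-K562 was at 5668, 4726 and 5508, just below 6130, 6510 and 5889 in V-K562. It fell by 0.22 (SE 0.07, adjusted p = 0.0182), whereas G-K562 was 1.35 below B-K562 on that scale (log2 fold change -1.35, SE 0.06). The annotation places microRNA genes inside ANK1, and no exon bases were shared with them.

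The receptors differed from each other. EPOR was at 699, 691 and 662 in V-K562 and at 1314, 1353 and 1340 in B-K562, so that all B-K562 libraries were higher (log2 fold change 0.96, SE 0.05, adjusted p = 2.68e-09). In G-K562 EPOR was at 664, 618 and 638, beside 710, 701 and 676 in V-K562. The G-K562 libraries did not overlap those of V-K562, but the difference of -0.12 did not pass the test (interval -0.26 to 0.02, adjusted p = 0.149). From B-K562 to G-K562 it was -1.09 (SE 0.06, adjusted p = 3.18e-10), and -0.96 with upper-quartile scaling.

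CD36 was close to the limit of detection. It was at 17, 20 and 19 in V-K562 and at 36, 41 and 34 in B-K562, and rose by 0.95 (SE 0.21, adjusted p = 0.00113). In all 3 G-K562 libraries it was listed at 0, where V-K562 was at 17, 20 and 20. With 3 as the most that a count of 0 allows per library, CD36 in G-K562 was at least 6.33-fold lower than its mean in V-K562. It entered that test only through its values in V-K562, so it could differ in one direction only.

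The genes closest in pattern to each member were found by the root mean square difference of centred log2 values over the 9 libraries, among 15520 genes. For EPOR this was DHRS13, with a difference of 0.036, and for GYPC it was MEAF6, also with 0.036. GYPE lay nearest to GLUD2 (0.049), ANK1 to MMACHC (0.057) and RHAG to MRPS15 (0.059). The distances were larger for SLC4A1 and GTPBP4 (0.094), KEL and CORO2A (0.108), GYPB and WASF1 (0.111) and CD36 and ZNF607 (0.142), and none of these neighbours is itself a member.

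Among the rest of the membrane and its skeleton genes moved in both directions. Of 39 other genes for erythroid membrane and skeletal proteins, 38 were tested between B-K562 and V-K562. Of these, 22 rose and 12 fell, beside 38.6% and 37.2% of all genes tested, with a median log2 fold change of 0.16. At least 2-fold changes were seen in 3 upward and 3 downward, beside 6.46% and 14.1% of all genes tested. These counts include ART4, which passed the filter on low values only through B-K562, and SLC14A1, which passed only through V-K562. The direction of each was thus fixed. EPB42, protein 4.2, which binds band 3 and ankyrin, rose from a range of 219 to 233 to one of 696 to 715 (log2 fold change 1.65, SE 0.07), and SPTB, beta spectrin, rose by 1.31 (SE 0.07). The third, ART4, was at most at 2 in V-K562 and at most at 16.3 in B-K562, too low for a fold. CD44, a hyaluronan receptor, fell by 1.16 (SE 0.05), BCAM, the Lutheran glycoprotein, changed by -1.88 (SE 0.12), and the urea transporter SLC14A1 had 12 to 18 in V-K562 but at most 3.1 in B-K562.

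In G-K562, 37 of these genes were tested against V-K562. Of these, 18 fell and 10 rose, beside 33.3% and 33.5% of all genes tested, with a median of -0.18. At least 2-fold, 11 fell and 3 rose, beside 10.3% and 8.81% of all genes tested. The largest falls were in SPTB (-3.19, SE 0.10) and EPB42 (-2.55, SE 0.15). The G-K562 libraries held SPTB at 268 to 317, against 2425 to 3075 in V-K562, with no overlap. The rises were in CD44 (1.76, SE 0.06), CD47, the surface signal that restrains phagocytes (1.34, SE 0.07), and the calcium pump ATP2B4 (1.01, SE 0.11). Between G-K562 and B-K562, 38 were tested, and 20 fell and 11 rose, beside 40.5% and 38.1% of all genes tested. At least 2-fold, 13 fell and 6 rose, beside 12.5% and 17.4% of all genes tested, and the median was -0.19. SPTB was at -4.50 (SE 0.08) and EPB42 at -4.20 (SE 0.11). ART4 was listed at 0 in G-K562 and entered this test only through B-K562, so it had to fall. CD44 was at 2.91 (SE 0.06), BCAM at 2.36 (SE 0.11) and SLC14A1 was at 8 to 13 in G-K562 against at most 3.1 in B-K562.

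Of 19 genes for signalling from EPOR, 6 rose and 9 fell in B-K562 against V-K562, with a median of -0.10, beside 38.6% and 37.2% of all genes tested, shares near which no direction of the list can be read. PIM1, a kinase induced by STAT5, fell by 1.71 (SE 0.07), and the feedback inhibitors SOCS1 and CISH fell by 1.40 (SE 0.17) and 1.20 (SE 0.07). GAB1, an adaptor protein, rose by 1.25 (SE 0.06). These 4 were the genes of the list past 2-fold, in a comparison where EPOR itself was higher. Of all genes tested, 6.46% rose and 14.1% fell at least 2-fold. In G-K562 against V-K562, 8 rose and 5 fell, beside 33.5% and 33.3% of all genes tested, with a median of 0.16. The lipid phosphatase INPP5D fell by 2.42 (SE 0.11), from a mean of 876 to 163, and SOCS2 and the phosphatase PTPN6 rose by 1.21 (SE 0.07) and 1.16 (SE 0.11). Between G-K562 and B-K562, 12 rose and 5 fell, beside 38.1% and 40.5% of all genes tested, with a median of 0.26. INPP5D was at -2.60 (SE 0.10) and GAB1 at -1.66 (SE 0.08), whereas SOCS1 was at 2.02 (SE 0.16), PTPN6 at 1.68 (SE 0.10) and CISH at 1.63 (SE 0.07).

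The erythroid identity of the lines was read from 14 marker genes, chiefly globins and erythroid transcription factors. All were expressed in V-K562. In B-K562, 13 rose and 1 fell against V-K562, beside 38.6% and 37.2% of all genes tested, with a median of 0.78. Their summed normalized read count lay between 140768 and 158504 for V-K562 libraries, and between 245035 and 249350 with wild type BASP1. In G-K562, 13 fell and 1 rose, beside 33.3% and 33.5% of all genes tested, with a median of -1.34, and the sum was 75645 to 82033. Such sums follow the most abundant genes, and the highest means in V-K562 were those of the globin genes HBE1 (45721) and HBG2 (38344). These globin genes were also highest with wild type BASP1, at 66786 and 61469, whereas TFRC was highest with the mutant, at 31673. GATA1, whose motif is marked in the promoters above, rose by 0.22 in B-K562 and fell by 0.56 in G-K562. KLF1, the factor that binds CACCC words, rose by 0.88 and fell by 1.48, and TAL1 rose by 0.25 and fell by 0.79. The marker that fell in B-K562 was NFE2, at -0.14, and it was at -0.71 in G-K562. TFRC was the marker that rose in G-K562, by 0.56. A part of these factors in the changes of the members was not tested. Most members thus moved in the direction of most of these markers, and the part of a shift between cell states in their changes was not tested. In these bulk samples fewer cells that express a gene and less RNA per cell cannot be told apart.

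**Figure D3:**
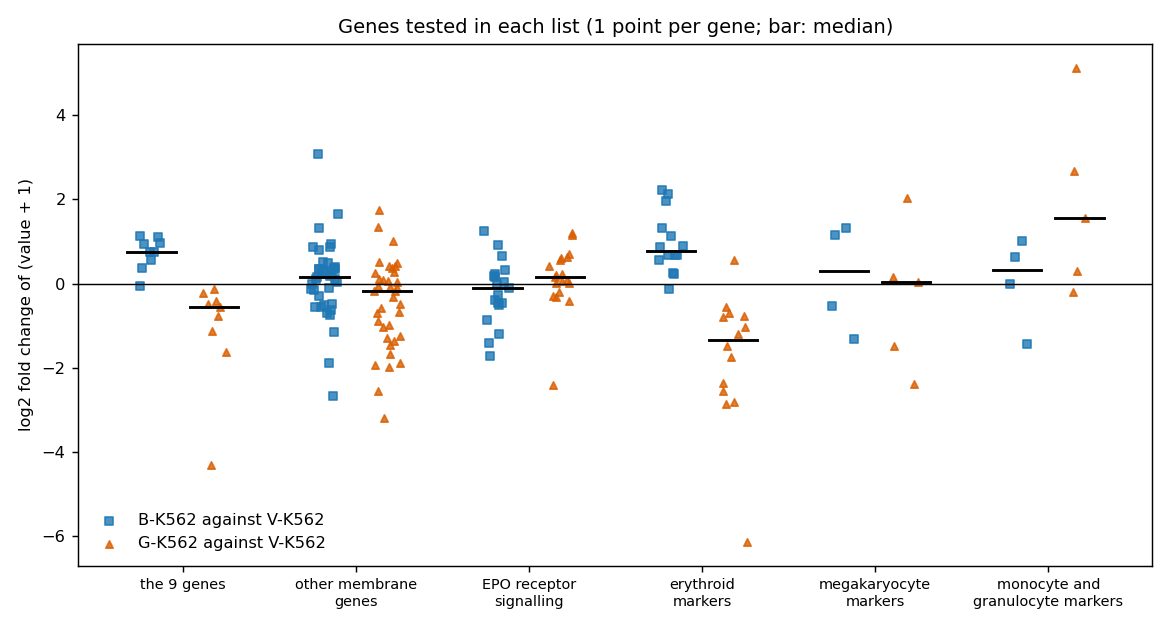
Log2 fold change of every tested gene in the 9 members and in 5 lists, against V-K562 in both comparisons, which share those libraries; each point is a gene and the bar is the median. The members' medians are 0.76 in B-K562 and -0.56 in G-K562 (CD36 included), those of the other membrane genes 0.16 and -0.18, and those of the erythroid markers 0.78 and -1.34.

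ATAC-seq, in which a transposase cuts accessible DNA, gave peaks per library, and a region was valued by its summit pileup, the number of overlapping tags at its highest point. Of the 49 regions, 20 were at ANK1, 6 at GYPB, 5 each at GYPC and KEL, 4 each at GYPE and SLC4A1, 3 at EPOR and 2 at RHAG. None was within 5 kb of CD36. A peak was called in all 9 libraries at 18 regions and in 1 or 2 libraries at 12. The libraries held 47111 to 55570 peaks, with a mean pileup of 40.3 to 40.9 for V-K562, 47.4 to 47.8 for B-K562 and 50.7 to 52.2 for G-K562, which the scaling between libraries was meant to even out. A library with no peak in a region was set to 17 tags, the 5th percentile of summits. Where a line had no peak, its difference is therefore neither a measurement nor a bound, and only the presence of peaks is measured.

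Between B-K562 and V-K562, 31 of the regions were tested. One, at GYPC, was called opened at least 2-fold, beside 1.53% of all regions tested, and 1, at KEL, was called closed, beside 6.16%. Each had no peak in any library of 1 line, so its direction was fixed by the filter, and of the 29 regions with a peak in both lines none was called. A peak in both lines here means a peak in at least 1 library of each, with the rest set to the floor. Between G-K562 and V-K562, 33 were tested, of which 11 closed, beside 13.1% of all regions tested, and 1 opened, beside 2.86%. Of these 11, 4 had no peak in any G-K562 library and 4 had peaks in all of them. They belonged to 6 members, and none was at ANK1 or EPOR. The 28 regions with a peak in both lines held 7 of the closed regions and not the opened one, which had peaks in G-K562 alone. Without V-K562 replicate 1, and likewise without V-K562 replicate 3, 6 closed and 1 opened, since the filter asks for peaks in 3 libraries and then leaves out the 4 regions without peaks in G-K562, and since the RHAG start then missed 2-fold. Between G-K562 and B-K562, 37 were tested, 10 closed, beside 8.6%, and 1 opened, beside 4.28%. Of the 27 with a peak in both lines 7 closed and none opened. The shares given are of all regions tested, and shares of those with a peak in both lines were not computed. The median log2 difference over the tested regions was 0.05 in B-K562 and -0.32 in G-K562, both against V-K562, where the medians over all regions tested were -0.062 and -0.096, and it was -0.27 in G-K562 over those with a peak in both lines.

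**Figure D4:**
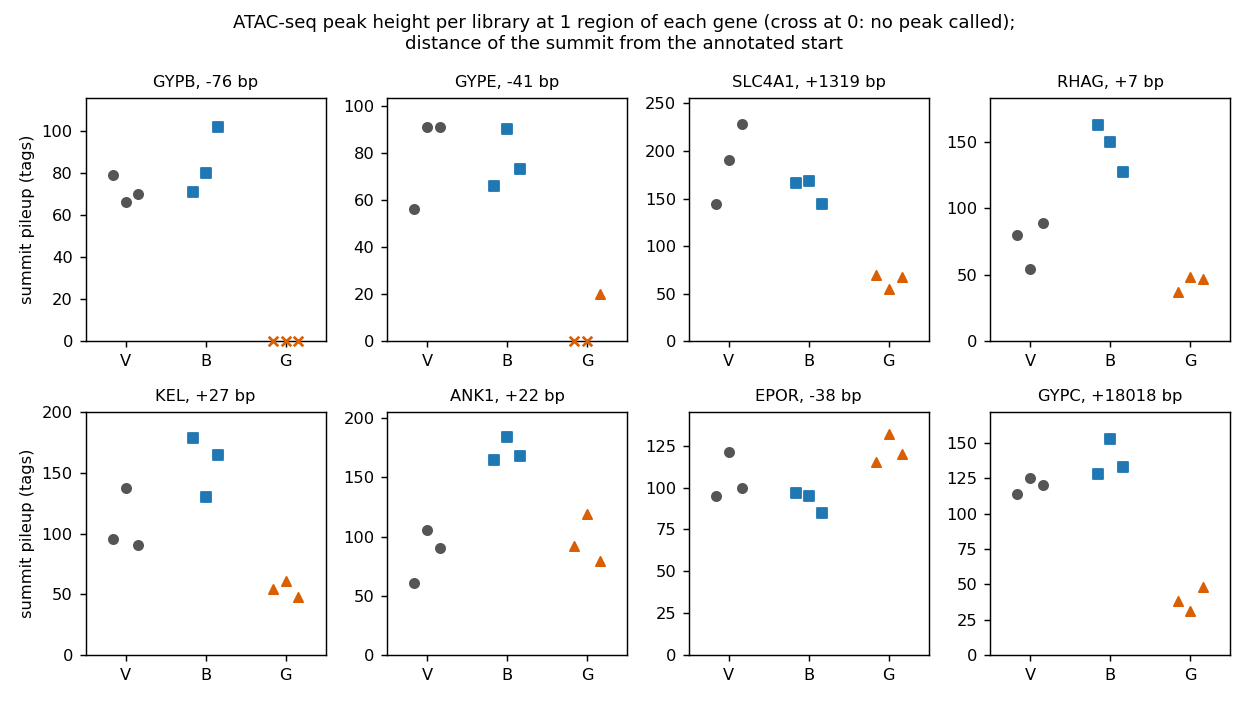
Summit pileup in each library at 1 region of each of 8 genes, with V, B and G for the lines and the distance of the summit from the annotated start; crosses at 0 mark libraries without a peak and are not values. Regions are those nearest the annotated start, except at GYPC. There, of 2 regions with peaks in all 9 libraries, the lower in G-K562 against V-K562 is drawn. G-K562 has no peak at the GYPB start, lies below V-K562 at SLC4A1, RHAG and KEL, and overlaps it at ANK1 and EPOR. G-K562 also lies below V-K562 at the GYPC region, which was picked for that, whereas the other GYPC region was higher in G-K562 (log2 difference 0.67).

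The starts of GYPB and GYPE, whose sequences are shown above, had no peak in most G-K562 libraries. At chr4:144019243-144019705, with its summit 76 bases before the GYPB start, V-K562 had summits of 79, 66 and 70 tags and B-K562 71, 80 and 102. No G-K562 library had a peak there, so no difference was measured. At chr4:143905443-143905947, 41 bases before the GYPE start, V-K562 had 56, 91 and 91 tags and B-K562 66, 90 and 73. One G-K562 library had a peak, of 20 tags, and the others were set to the floor (log2 difference -2.29 from V-K562, adjusted p = 3.86e-04). The size and the p-value of that difference thus rest mostly on the floor. V-K562 and B-K562 overlapped at both starts, with log2 differences of 0.07 and -0.18, although both genes were higher in B-K562. Reads from the near-identical sequences can be lost by unique mapping.

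An intronic region in each of these genes, with summits 18868 bases into GYPB and 25815 bases into GYPE, had peaks in all V-K562 and B-K562 libraries and in none of G-K562. Other peaks at GYPB and GYPE were found in at most 4 libraries each.

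At the KEL start, chr7:142961997-142962605, the order of the lines was that of the RNA. V-K562 had summits of 96, 138 and 91 tags, B-K562 179, 130 and 165 and G-K562 54, 61 and 48. The B-K562 libraries overlapped those of V-K562 (log2 difference 0.40, adjusted p = 0.123), and the G-K562 libraries lay below both. The difference of G-K562 was -1.31 from V-K562 (SE 0.19, adjusted p = 0.00161) and -1.73 from B-K562, and without scaling between libraries the first was -0.96. In an intron, 7355 bases into the gene at chr7:142954828-142955218, a peak was present only in G-K562, at 76, 68 and 75 tags. This was the 1 region that opened in G-K562, at the member with the largest measured fall in RNA. A second intronic region, 5051 bases into the gene, had peaks of 37, 40 and 61 tags in V-K562, none in B-K562 and 1 of 32 tags in G-K562, so that no difference of B-K562 was measured.

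At the RHAG start, chr6:49636634-49637077, V-K562 had 80, 54 and 89 tags, B-K562 163, 150 and 127 and G-K562 37, 48 and 47. The lines did not overlap, in the order of the RNA. The listed blocks of a tRNA gene, TRI-AAT7-2, span this summit from the first block to the last. The summit lies in an exon of RHAG, with which those blocks share no bases, so it lies outside them. B-K562 was higher by 0.84 on the log2 scale (SE 0.19, adjusted p = 0.017), short of 2-fold, and by 1.15 with scaling within bins of GC content (adjusted p = 0.0067), which is past it. G-K562 was at -1.07 from V-K562 (adjusted p = 0.00802), a call lost without V-K562 replicate 1 or 3, without G-K562 replicate 1, without scaling, with mean pileup and with scaling within bins of GC content, where it was -0.60. From B-K562 to G-K562 it was -1.93, and it remained past 2-fold in the 17 alternatives run.

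No region had its summit within 1 kb of the SLC4A1 start. The nearest, in the first part of the gene at chr17:44266466-44267084, 1319 bases past the start and in an intron, had 144, 191 and 228 tags in V-K562 and 166, 168 and 144 in B-K562, which overlapped. G-K562 had 70, 55 and 67 tags, below every other library (-1.87 from V-K562, adjusted p = 3.34e-04, and -1.52 from B-K562). Past the end of the gene, at chr17:44245613-44246485, V-K562 had 62, 81 and 68 tags, B-K562 67, 94 and 66, and G-K562 2 peaks of 26 tags. Both regions were called closed in G-K562 in every alternative that could be fitted, 13 at the second and 14 at the first. SLC4A1 RNA rose 2.15-fold in B-K562 while neither region was called in that comparison (-0.37 and -0.06).

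GYPC had a peak at its start in a single library. Its region 1826 bases into the gene, at chr2:126657157-126658250, was open in all 9 libraries. It had 110, 74 and 67 tags in V-K562, 126, 119 and 96 in B-K562 and 165, 157 and 177 in G-K562, and none of the comparisons reached 2-fold. G-K562 was higher than V-K562 by 0.67 (SE 0.19, adjusted p = 0.0249), and by 1.01 without scaling between libraries, which is past 2-fold. In contrast a region in an intron 18018 bases past the start, chr2:126673890-126674498, had 114, 125 and 120 tags in V-K562, 128, 153 and 133 in B-K562 and 38, 31 and 48 in G-K562. G-K562 lay below both other lines there (-1.96 from V-K562, adjusted p = 2.56e-04). A region 4926 bases before the start had 58, 48 and 44 tags in V-K562, 84, 103 and 71 in B-K562 and no peak in G-K562. The region that opened in B-K562, at chr2:126676892-126677164, had peaks only there, of 39, 46 and 58 tags, at the member whose RNA did not pass the test in that comparison.

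ANK1 is a long gene with several starts, and the region at its annotated main start, with the summit 22 bases inside, had 61, 106 and 90 tags in V-K562, 165, 184 and 168 in B-K562 and 92, 119 and 79 in G-K562. B-K562 lay above both other lines, which overlapped each other. The log2 difference was 0.88 from V-K562 (SE 0.18, adjusted p = 0.0107), short of 2-fold but past it at 1.03 without scaling and 1.04 without V-K562 replicate 2, and G-K562 was at -1.06 from B-K562 (adjusted p = 0.00407) and at -0.16 from V-K562 (adjusted p = 0.618). The call between G-K562 and B-K562 was lost without G-K562 replicate 3, without scaling and with mean pileup. Of the 20 regions at ANK1, 9 had peaks in all 9 libraries, and no other region was called in any comparison.

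The EPOR start, chr19:11384129-11384564, was not called in any comparison. V-K562 had 95, 121 and 100 tags, B-K562 97, 95 and 85 and G-K562 115, 132 and 120, which after scaling gave -0.33 and -0.13 against V-K562 and 0.19 between G-K562 and B-K562. The V-K562 range overlapped both others, and with GC bins the differences from V-K562 were -0.56 (adjusted p = 0.0146) and -0.46 (adjusted p = 0.0153). None of the 3 regions at EPOR was called, although EPOR RNA was 1.95 times as high in B-K562 as in V-K562. One of them lies at the start of the neighbouring gene SWSAP1 and rose in G-K562 by 0.32 (adjusted p = 0.00704).

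**Figure D5:**
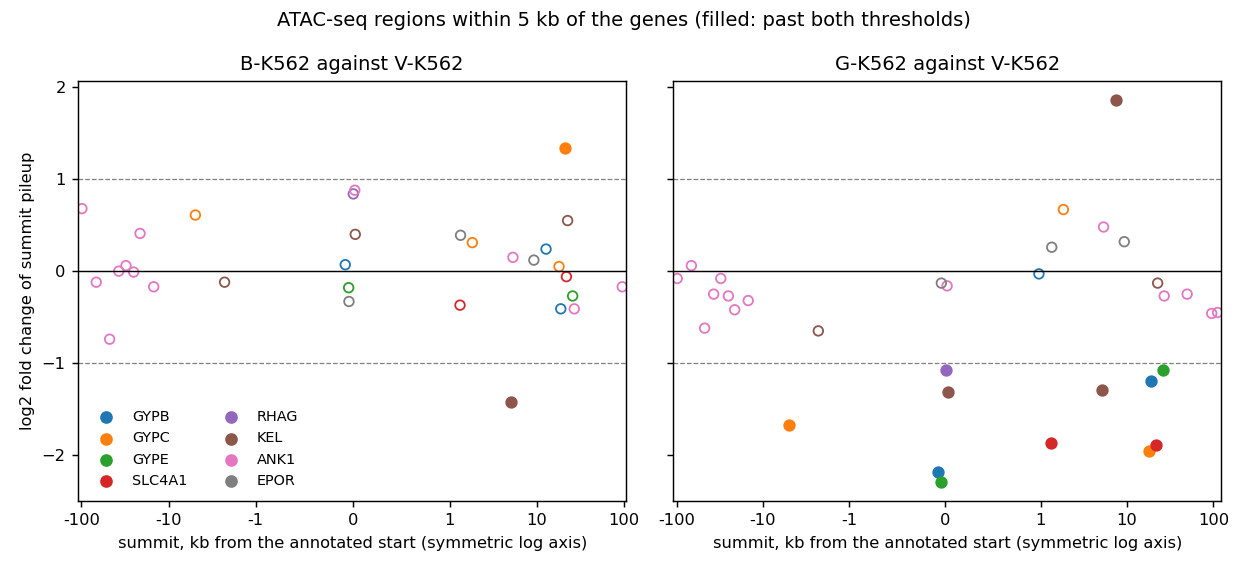
Log2 difference in summit pileup of each tested region against the distance of its summit from the annotated start in kb, on a symmetric log axis; filled points passed both thresholds and dashed lines mark 2-fold. In G-K562 the 11 closed regions lie at starts, in introns and outside the genes, and those of ANK1 and EPOR are unfilled, while in B-K562 1 region opened at GYPC and 1 closed at KEL.

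The regions that closed in G-K562 had a GC content of 40.4% to 55.3%. Scaling the libraries within 20 bins of GC content, an alternative chosen after seeing the data, left 8 closed and 1 opened region in G-K562 against V-K562, 10 closed and 1 opened against B-K562, and 1 closed and 2 opened in B-K562 against V-K562. The starts of GYPE and KEL in G-K562 were at -1.99 and -1.15 from V-K562 under that scaling, and the RHAG start was at -0.60. The GYPE value again rests mostly on the floor.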

How the data were processed

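RNA values were gene counts that the authors had made with Subread from uniquely mapped reads (STAR, GRCh38) and divided by DESeq2 size factors, so the deposited values are a normalized signal and not raw counts; the depth of each library is not known from them, and their sums were 32074895 to 33229588. ATAC values were the pileup signal of MACS2 peaks, deposited per library; the study treated these cells with DNase before harvest. The authors' deposited fold change, p-value and peak score columns were not used.

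V-K562 and B-K562 were fitted in 1 table, V-K562 and G-K562 in the other, and G-K562 against B-K562 after putting B-K562 on the scale of the second table by the mean ratio of the shared V-K562 values, 1.017. Log2(value + 1) was tested with limma 3.58.1 (R 4.3.3, trend) for genes at 10 or more in at least 3 libraries, with Benjamini-Hochberg adjustment over all genes. A fold change is on that scale and understates the change of low genes. A call needed an adjusted p of at most 0.05 and, where stated, a 2-fold change. Peaks were merged into regions, valued by the highest summit, scaled by a trimmed mean (30% of log ratios and 5% of levels trimmed at each end), floored at 17 and fitted likewise where at least 3 libraries had a peak. Starts of intervals were read as counted from 0. The fits were tested on simulated data. Strand use in counting is not given in the sources used here.

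All 9 members are named, with up to 3 called genes per direction and list (1 that the rule names is not reported here), the nearest gene in pattern, and regions that were called or lie nearest to a start; the EPOR region that passed p only and the single marker genes were added after their values were seen. Members and gene lists were chosen with earlier results of these data known. The 5 lists were membrane and skeleton genes, EPO receptor signalling, and erythroid, megakaryocyte and platelet, and monocyte and granulocyte markers. Alternatives were other scalings, pseudocounts, filters, floors, a replicate block and leaving out each library. No sample column was left unmapped (0).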

Additional observations from a re-analysis of the deposited data

How the results depend on the processing

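The members called kept their count within 1.5 times of that reported in most alternatives, and no direction was reversed. Of 96 counts recomputed, 16 moved further. Members past 2-fold in B-K562 against V-K562 were 2, became 0 with upper-quartile scaling and 8 with no criterion on the fold change, and were 2 to 3 over the fits that left out 1 library. In G-K562 against V-K562 they were 3, became 8 with no such criterion and were 1 to 3 over the leave-one-out fits. In G-K562 against B-K562 the 7 ranged from 6 to 9. Of the regions called, the 2 in B-K562 against V-K562 became 0 where a peak was asked for in every library and 6 with no fold criterion, and were 1 to 2 over the leave-one-out fits. The 12 in G-K562 against V-K562 became 4 with a peak in every library and were 7 to 11 over the leave-one-out fits. The 11 in G-K562 against B-K562 became 5 and, with no fold criterion, 17, and were 9 to 12 over the leave-one-out fits. A peak in every library leaves out the regions without peaks in 1 line, 24, 18 and 18 being tested; for upper-quartile scaling the cause was not tested. Without scaling between libraries the median of all ATAC regions was 0.188 in G-K562 against V-K562 and 0.123 against B-K562.

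Of 373 log2 fold changes of single members, 367 kept their direction and their side of the threshold; CD36 reached 1.01 in B-K562 against V-K562 without B-K562 replicate 3. CD36 in G-K562 could not be tested against V-K562 where a V-K562 library was left out or a value of 10 was asked for in every library.

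The lines share replicate numbers, but the correlations of the deviations of same-numbered libraries were -0.151 to 0.257 for RNA and, all positive but weak, 0.007 to 0.122 for ATAC, not above 0.1 in every pair, so the numbers were not taken to pair the samples. With the replicate number as a block, the counts were 2, 3 and 7 members and 2, 12 and 11 regions, and no count moved.

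For RNA, values near 10, as of CD36 and SLC14A1, limit what can be seen, and for ATAC the lowest deposited summit of 10 tags.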

Other observations

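Genes that mark the neighbouring blood lineages, some of which also carry CD36, changed without a common direction in the megakaryocyte list. In the monocyte list 3 of the 5 genes tested in G-K562 rose. Among them FCGR1A passed the filter on low values only through G-K562, so it had to rise. Of 12 megakaryocyte and platelet markers, 7 stayed below 10 in all 9 libraries and GP1BB was at 0 throughout. ITGA2B, the platelet integrin alpha chain, was at 4281 to 4628 in V-K562 and changed by -1.31 in B-K562 and -2.39 in G-K562 (log2 against V-K562), GP6, the collagen receptor of platelets, rose by 1.32 and 2.03, and TUBB1, platelet tubulin, rose by 1.15 in B-K562 and fell by 1.48 in G-K562. Of 4 tested in B-K562, 2 rose and 2 fell, beside 38.6% and 37.2% of all genes tested. Of 5 tested in G-K562, 1 rose and 2 fell, beside 33.5% and 33.3%. Summed normalized read counts of this list lay between 5536 and 5710 in V-K562, 3807 and 4127 in B-K562, and 2052 and 2704 in G-K562. These sums too follow the most abundant genes. The mean of ITGA2B was 4416 with the empty vector, 1785 with wild type BASP1 and 857 with the mutant. GP6 had means of 222, 551 and 903 in the same order, and ITGB3 did not pass the test with the mutant (log2 fold change 0.03). The fall of the sums is therefore not a fall of the whole list.

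Of 8 monocyte and granulocyte markers, 4 were tested in B-K562, where 2 rose and 1 fell, beside 38.6% and 37.2% of all genes tested. In G-K562 5 were tested, where 3 rose and 1 fell, beside 33.5% and 33.3%. The direction of FCGR1A, among the 3, was fixed by the filter. CSF1R, CD163 and MPO were tested in neither. In G-K562 the lysozyme gene LYZ rose by 1.55, the integrin gene ITGAM by 2.67, to a range of 297 to 301, and the Fc receptor gene FCGR1A stood at 75 to 120 where V-K562 was at 1 to 2. ITGAM rose in B-K562 also, by 1.01. CD68, a lysosomal protein, fell by 1.44 in B-K562 and by 0.21 in G-K562, where CD14 did not pass the test. The sum of the 8 markers lay between 4552 and 4624 in V-K562, 2533 and 2774 in B-K562, and 6834 and 7483 in G-K562. It mostly follows CD68 and LYZ, whose means with the empty vector were 3139 and 1348. With wild type BASP1 CD68 was at 1158 and LYZ at 1352, and with the mutant they were at 2721 and 3965. CD36, which monocytes also make, was at 0 in G-K562.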
